A study of Rattus norvegicus with 8 samples.

Results

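The miR-30 family was measured in the prostatic urethra of male Sprague Dawley rats with a microarray for rat miRNAs. Its members were taken by name as the rat miRNAs called miR-30a, miR-30b, miR-30c, miR-30d or miR-30e, both strands included. The rule found 11 members among the 758 rat miRNAs of the array, of which 5 were 5p strands and 6 were 3p strands. All rats were 10 to 12 months old, and tissue was taken on day 5 after the operation. TULP rats had a simulated transurethral laser prostatectomy, in which the prostatic uroepithelium was vaporized with a thulium laser and in which the bladder was opened to pass the instrument. The sham group had an abdominal incision with no laser treatment, so the incision was shared and the opening of the bladder, as far as the methods say, was not. Each group held 4 rats with 1 array each, and the labels name no transgene. The labels of the TULP samples disagree, since title, tissue and treatment name trauma tissue whereas the description names a sham operation. The groups used here rest on the titles.

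A miRNA is cut from a hairpin precursor that can give a mature strand from each arm, named 5p and 3p for the end of the hairpin it comes from. The strand that is kept in the silencing complex is called the guide, and the other strand is mostly degraded. Bases 2 to 8 of the mature strand, the seed, pair with the messenger RNAs that the miRNA represses. In the miR-30 family, the 5p strands share 1 seed and are the usual guides, while the 3p strands carry other seeds. The family is known for high levels in differentiated epithelium and muscle and for effects on fibrosis and on the transition of epithelial cells to a mesenchymal state.

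The mature sequences of 6 members were found in the rat RefSeq entries (build GRCr8). They are shown because the 5p members have 1 seed in common and the 3p members carry others. The capitals mark the seed of each strand.
miR-30a-5p: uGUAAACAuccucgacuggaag
miR-30e-5p: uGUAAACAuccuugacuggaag
miR-30c-5p: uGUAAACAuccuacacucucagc
miR-30a-3p: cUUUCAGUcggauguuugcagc
miR-30c-1-3p: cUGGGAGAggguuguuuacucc
miR-30c-2-3p: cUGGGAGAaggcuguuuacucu

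Counted from 1 at the 5′ end, miR-30a-5p and miR-30e-5p differed by 1 substitution, C13U, outside the seed. miR-30c-5p differed from miR-30a-5p at 5 of the 22 bases compared, the first at position 13. The 3p strands miR-30c-1-3p and miR-30c-2-3p shared a seed of their own and differed at 3 of 22 bases. Of the 693 miRNA names with a mature entry, 4 (0.577%) had the 5p seed. The name outside the family was miR-384-5p, which was detected on 0 of 8 arrays. The members without a mature entry in this table were miR-30b-5p, miR-30b-3p, miR-30d-5p, miR-30d-3p and miR-30e-3p.

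The 6 hairpin genes lie in 3 pairs. On GRCr8, Mir30a (chr9:33233941-33234011) overlaps no other annotated gene. Its neighbour Mir30c2 (chr9:33253682-33253765) lies 19670 bases away, overlapping the long non-coding RNA gene LOC134480562 and the pseudogene Rbx1-ps1. Mir30c1 (chr5:139634455-139634543) and Mir30e (chr5:139637450-139637541) are 2906 bases apart, both within the protein-coding gene Nfyc, which encodes a subunit of the transcription factor NF-Y. Mir30b (chr7:102021543-102021629) and Mir30d (chr7:102025345-102025426) are 3715 bases apart within the long non-coding RNA gene LOC102551574. The mature strand miR-30c-5p is the same from Mir30c1 and Mir30c2, so its signal could not be assigned to either pair.

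In all, 7 of the 11 members were detected on all 8 arrays, namely the 5p strands of all 5 paralogs and the 3p strands of miR-30a and miR-30e. Detection means that at least 1 probe of the miRNA gave a signal above 3 times its error. The other 4 members, all 3p strands, were seen rarely. miR-30b-3p was detected on sham replicates 2 and 3, where its total signal was 2.18 and 2.00. miR-30c-2-3p was detected on sham replicate 4 alone, at 4.28. miR-30c-1-3p and miR-30d-3p were detected on 0 of 8 arrays. Averaged over spots whether detected or not, the signal of miR-30b-3p was 3.38 in the sham group and 2.04 in the TULP group, and that of miR-30c-2-3p was 2.33 and 0.97. These signals lie near the detection limit and were not tested.

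Before the arrays were normalized, all 4 sham arrays lay above all 4 TULP arrays for each of the 7 members. Of all 151 miRNAs detected on at least 4 arrays, 29.1% were lower without overlap in this way. The summed signal of detected miRNAs was also lower on each TULP array, at 16787 to 19464 against 21075 to 37357 on the sham arrays. On this scale, the geometric mean signal of the 5p members was 1.95-fold (miR-30d-5p) to 2.58-fold (miR-30e-5p) lower in the TULP group. For the 3p members, it was 2.46-fold lower for miR-30a-3p and 2.48-fold lower for miR-30e-3p. The values below were quantile normalized, which removes a difference in total signal, so that they compare a miRNA with the rest of its own array. Each value is a log2 normalized signal. Because probes bind with different strength, values of different miRNAs were not set against each other. In such bulk tissue, fewer cells of a type and less RNA per cell cannot be told apart.

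After normalization, all 7 tested members were lower in the TULP group, and all 7 passed the adjusted p of 0.05 (limma, Benjamini-Hochberg over the 151 miRNAs tested). The groups did not overlap for any of the 7. Over all tested miRNAs, 30.5% passed in either direction, and 16.6% passed and were lower. Groups without overlap were found for 29.1% in either direction and for 14.6% in the lower direction. The differences ranged from -0.37 (miR-30d-5p) to -1.11 (miR-30e-3p) on the log2 scale, with limma adjusted p-values from 0.00313 to 0.0257. The median difference of the 7 members was -0.75, beside -0.02 for all tested miRNAs. Of the 7, 1 changed more than 2-fold, where 9.27% of all tested miRNAs passed and changed by that much in either direction and 3.97% in the lower one.

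**Figure D1:**
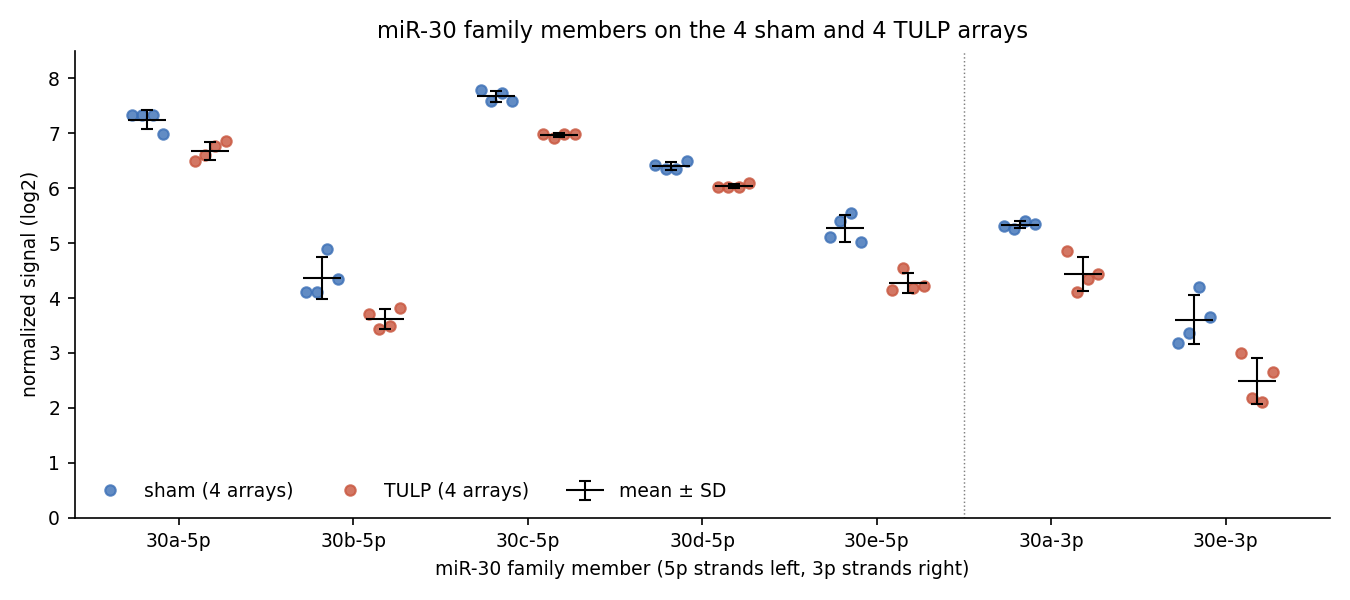
Log2 normalized signal of the 7 tested members on each sham (blue) and TULP (red) array, with the mean and SD of the 4 arrays of a group in black and the 3p strands to the right of the dotted line. For each member, every TULP array lies below every sham array.

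The Mir30c1/Mir30e pair gave the member with the largest fall among the 5p strands. miR-30e-5p (rno-miR-30e-5p), which carries the family seed, was 5.10, 5.40, 5.54 and 5.02 on sham replicates 1 to 4 and 4.14, 4.54, 4.19 and 4.22 on TULP replicates 1 to 4. The highest TULP array, replicate 2, lay below the lowest sham array, replicate 4. miR-30e-5p decreased by 1.00 (limma adjusted p = 0.00539, SE 0.15), a 1.99-fold difference. The group means were 5.27 ± 0.24 for sham and 4.27 ± 0.18 for TULP (SD, n = 4 each). Its rank among the 5p strands depended on the processing. Under normexp background correction and on the stored totals, miR-30a-5p changed by -0.38 and -0.92, beside -0.22 and -0.86 for miR-30e-5p. With the brightest probe, miR-30e-5p kept the largest fall (-0.76). The total of miR-30e-5p held both of its probes on all sham arrays but 1 probe on most TULP arrays, as described below.

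Its partner strand from the same hairpin, miR-30e-3p (rno-miR-30e-3p), was 3.19, 3.36, 4.20 and 3.66 across sham replicates 1 to 4, and TULP replicates 1 to 4 gave 3.01, 2.18, 2.11 and 2.66. TULP replicate 1 was close under sham replicate 1. The group means of 3.60 ± 0.45 for sham and 2.49 ± 0.42 for TULP (SD, n = 4 each) were 2.16-fold apart, a difference of -1.11 (limma adjusted p = 0.0230). miR-30e-3p passed and changed more than 2-fold in 14 of 24 alternative processings, 1 of them the methods' t-test taken by its unadjusted p. In 8 of the 24 it did not pass, among them the fits without sham replicate 3, sham replicate 4, TULP replicate 2 or TULP replicate 3, with limma adjusted p-values of 0.0507 to 0.0711.

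From the Mir30a/Mir30c2 pair, miR-30a-5p (rno-miR-30a-5p) was 7.33 on sham replicates 1, 2 and 3 and 6.98 on sham replicate 4. Across the TULP replicates, it was 6.50, 6.60, 6.76 and 6.85. The equal sham values are equal ranks, which quantile normalization turns into equal values, and sham replicate 4 lay near the TULP arrays. miR-30a-5p decreased by 0.56 (limma adjusted p = 0.0161, SE 0.13), a 1.48-fold difference. Without sham replicate 4, it decreased by 0.65.

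The opposite strand, miR-30a-3p, has the seed UUUCAGU, which no other rat miRNA with a mature entry had. Since miR-30b-3p, miR-30d-3p and miR-30e-3p had no entry, whether they share it could not be read from the reference table. This strand (rno-miR-30a-3p) was 5.32, 5.26, 5.40 and 5.35 across the sham replicates and 4.85, 4.10, 4.35 and 4.43 across the TULP replicates. The sham arrays were tightly grouped and TULP replicate 1 was the TULP array nearest to them. miR-30a-3p decreased by 0.90 (limma adjusted p = 0.00709, SE 0.16), a 1.86-fold difference, with means of 5.33 ± 0.06 for sham and 4.44 ± 0.31 for TULP (SD, n = 4 each).

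miR-30c-5p, which can come from either of these pairs, was 7.78, 7.59, 7.73 and 7.59 across the sham replicates and 6.98, 6.91, 6.98 and 6.98 across the TULP replicates. Both groups were narrow and far apart relative to their spread. miR-30c-5p decreased by 0.71 (limma adjusted p = 0.00313, SE 0.08), the lowest adjusted p among the members.

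The Mir30b/Mir30d pair gave the smallest fall of the family and a middle one. miR-30b-5p was 4.10, 4.10, 4.90 and 4.35 across the sham replicates and 3.71, 3.44, 3.50 and 3.82 across the TULP replicates. Sham replicate 3 stood above the other sham arrays. miR-30b-5p decreased by 0.75 (limma adjusted p = 0.0257, SE 0.20). This call was lost without sham replicate 4, TULP replicate 2 or TULP replicate 3, where the limma adjusted p was 0.0604, 0.0722 and 0.0702.

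miR-30d-5p was 6.42, 6.35, 6.35 and 6.50 across the sham replicates and 6.02, 6.02, 6.02 and 6.09 across the TULP replicates. Both groups were narrow, so the smallest change of the family, -0.37, was still larger than the spread (limma adjusted p = 0.0132, SE 0.08). Of the 95% intervals of the members' differences, those of miR-30d-5p (-0.55 to -0.18) and miR-30e-5p (-1.35 to -0.64) did not overlap, and all other pairs did. With the brightest probe of each miRNA in place of its summed signal, miR-30d-5p changed by -0.55 and miR-30e-5p by -0.76. Differences in fall between paralogs were not tested.

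**Figure D2:**
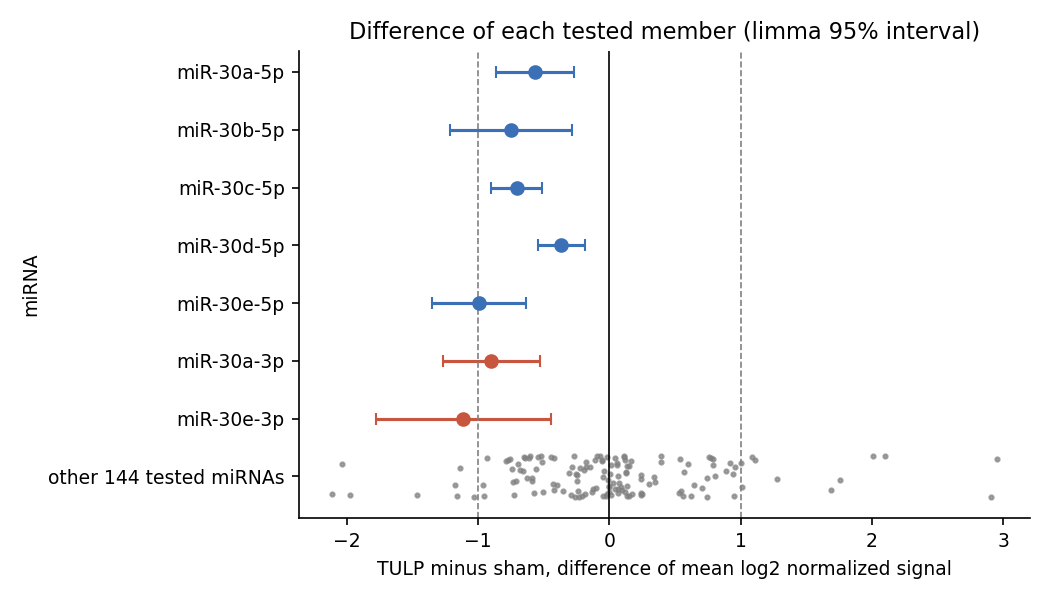
Difference of mean log2 normalized signal, TULP minus sham, for each tested member with its 95% interval from limma (blue 5p, red 3p), above the differences of the other 144 tested miRNAs as grey dots spread vertically for visibility. Dashed lines mark 2-fold changes. All 7 intervals lie below 0, and 1 member lies past the 2-fold line.

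The question whether guide and partner strand of a hairpin changed by different amounts could be asked for miR-30a and miR-30e, which had both strands tested. On each array, the log2 value of the 3p strand was taken from that of the 5p strand, and the TULP mean of this quantity was compared with the sham mean. For miR-30a, the quantity was 2.02, 2.07, 1.93 and 1.63 across the sham replicates and 1.65, 2.50, 2.41 and 2.42 across the TULP replicates. TULP replicate 1 lay among the sham arrays and the other TULP arrays lay above them. The difference of 0.33, a larger fall of the 3p strand, did not pass a two-sided exact permutation test over the 70 labellings (p = 0.171, adjusted p = 0.471 over the 11 hairpins of the array with both strands tested). The interval of differences compatible with that exact test at 95% ran from -0.42 to 0.87. Without normalization between arrays, the difference was 0.057 (exact permutation p = 0.714). Without TULP replicate 1, the difference of normalized values was 0.47 with an exact permutation p of 0.0286, the lowest that this number of arrays allows. That p was not adjusted over the hairpins. The other fits with 1 array left out gave exact permutation p-values of 0.171 to 0.429.

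For miR-30e, the quantity was 1.92, 2.04, 1.34 and 1.37 across the sham replicates and 1.13, 2.37, 2.07 and 1.56 across the TULP replicates. The groups were interleaved. The 2 means differed by 0.12 (exact permutation test, two-sided p = 0.714, adjusted p = 0.943), with an interval from -0.90 to 1.03, so these arrays could not tell a larger fall of one strand from a larger fall of the other. The sign of this difference changed in 6 alternatives with a test, 1 of them the fit without TULP replicate 2. The totals of both miR-30e strands summed different numbers of probes on different arrays, as described with the probes below. With the brightest probe of each strand in place of its total, the miR-30e difference was 0.29 (exact permutation p = 0.343). Within slide rows 1 and 2, the difference was 0.56 and 0.42 for miR-30a and 0.49 and -0.20 for miR-30e. Among the 9 hairpins outside the family with both strands tested, the same quantity ranged from -0.78 to 0.36 with a median of 0.03. None of the 11 hairpins had an exact p under 0.05, and the lowest was 0.114.

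**Figure D3:**
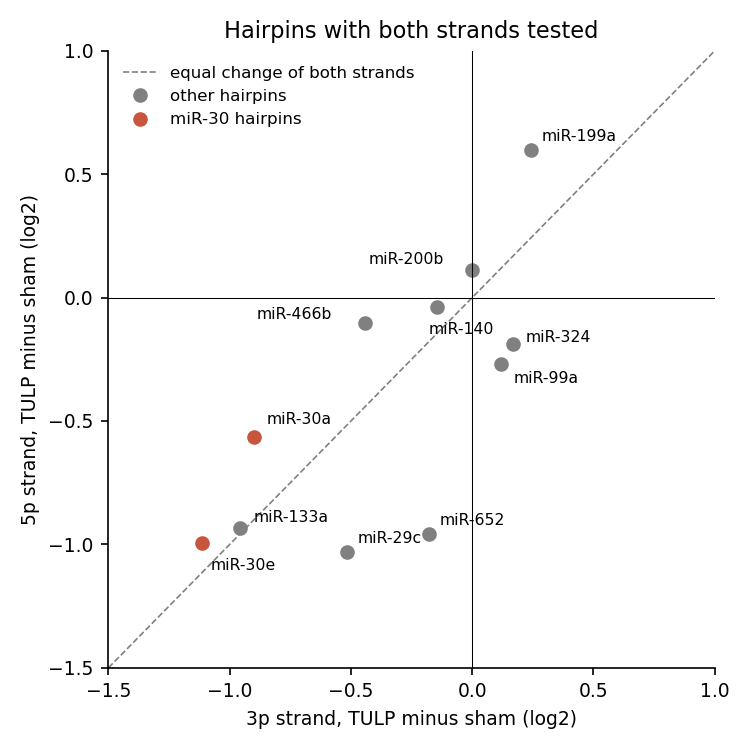
Change of the 5p strand against change of the 3p strand (both TULP minus sham, log2) for the 11 hairpins with both strands tested, with the miR-30 hairpins in red. The dashed line marks equal change, and both miR-30 points lie in the lower left near it, at 3p changes of -0.90 and -1.11.

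Each tested member was read by more than 1 probe, and the probes are shown because those of close paralogs differ by 1 base. Each pair below was aligned from the 5′ end over the length of the shorter probe, with the differing base in capitals, and each is the brightest probe of its member.
miR-30a-3p probe: gctgCaaacatccgact
miR-30e-3p probe: gctgTaaacatccgactg
miR-30a-5p probe: cttccagtcGaggatg
miR-30e-5p probe: cttccagtcAaggatgt

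Probes this similar can bind the relative as well, so the separate values of miR-30a and miR-30e are uncertain to that extent. Of the 28 probes for the 11 members, 12 were detected on at least 4 arrays. Fitted one by one with limma, all 12 were lower in the TULP group and passed the adjusted p, where 32.3% of the 251 probes tested on the array passed. Their differences ranged from -0.46 to -1.68. The -1.68 came from a miR-30e-5p probe that exceeded 3 times its error on 4 sham arrays and 1 TULP array. That probe met the filter mainly through the sham group, so its fall adds no separate evidence. The other tested probes ranged from -0.46 to -0.94. The 2 probes of miR-30d-5p gave -0.46 and -0.49, and those of miR-30c-5p gave -0.69 and -0.62. The pair for miR-30a-5p gave -0.84 and -0.59, and the pair for miR-30a-3p gave -0.94 and -0.80.

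The probes of miR-30e and miR-30b were less even. The brighter probe of miR-30e-5p, above its error limit on 8 of 8 arrays, gave -0.69 (limma adjusted p = 0.0111 over the tested probes). The dimmer one gave -1.68, but it exceeded the limit on 4 sham arrays and 1 TULP array, so its value rests mostly on undetected TULP arrays. Because totals add up detected probes, the total of miR-30e-5p held both probes on all sham arrays and on TULP replicate 2, and a single probe on the other TULP arrays. With the brightest probe in place of the total, miR-30e-5p fell by 0.76 (limma adjusted p = 0.00566). The total of miR-30e-3p rested on 1 probe on 7 arrays and on both probes on sham replicate 3, its highest array. That 1 probe alone gave -0.90 (limma adjusted p = 0.0139), under 2-fold. For miR-30b-5p, the second probe was counted on sham replicates 3 and 4, and the brighter probe alone gave -0.61.

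**Figure D4:**
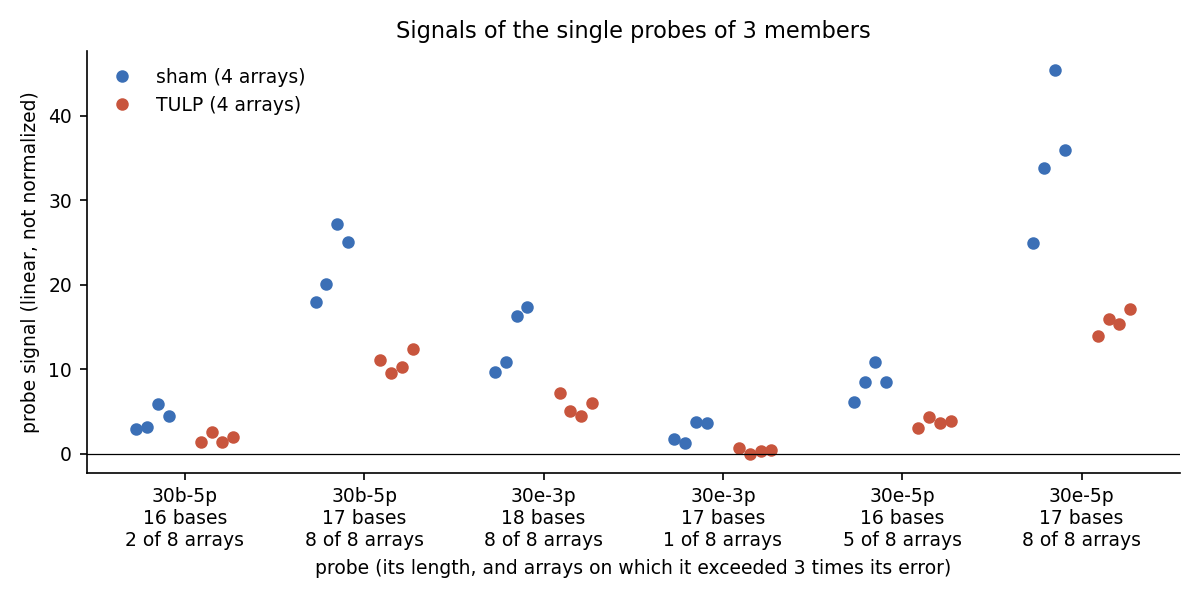
Signal of the single probes of miR-30b-5p, miR-30e-3p and miR-30e-5p on each sham (blue) and TULP (red) array, on a linear scale before normalization. Labels give the probe length and on how many of 8 arrays the probe exceeded 3 times its error, which for the dimmer probes is 2, 1 and 5 arrays.

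All 8 arrays lay on 1 slide in 2 rows, and row and group were partly mixed, with sham replicate 4 and TULP replicates 1, 2 and 3 in row 1. Within row 1, all 7 members were lower in the TULP arrays, from -0.36 (miR-30a-5p) to -1.22 (miR-30e-3p). Within row 2, which held 1 TULP array, all 7 were lower as well, from -0.28 (miR-30d-5p) to -1.13 (miR-30e-5p). With the row as a block, 5 of the 7 passed, beside 18.5% of all tested miRNAs, and miR-30b-5p (-0.68, limma adjusted p = 0.0987) and miR-30e-3p (-1.07, limma adjusted p = 0.0808) did not.

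The direction was the same when other references were used for the amount of RNA. Without normalization, the members' differences were -0.96 to -1.37, while the median of all tested miRNAs was -0.55. Scaled to the labelling spike-ins, which are control RNAs of known amount, the differences were -1.19 to -1.60, while the median of all tested miRNAs was -0.78. All 7 passed in both fits, in which 35.1% and 57.6% of the tested miRNAs passed. Without TULP replicate 1, the TULP array nearest to the sham arrays for both 3p strands, all 7 passed as well, beside 57 of 149 tested miRNAs. Scaled to the 75th percentile of each array, the differences were -0.45 to -0.85 and 0 members changed more than 2-fold.

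**Figure D5:**
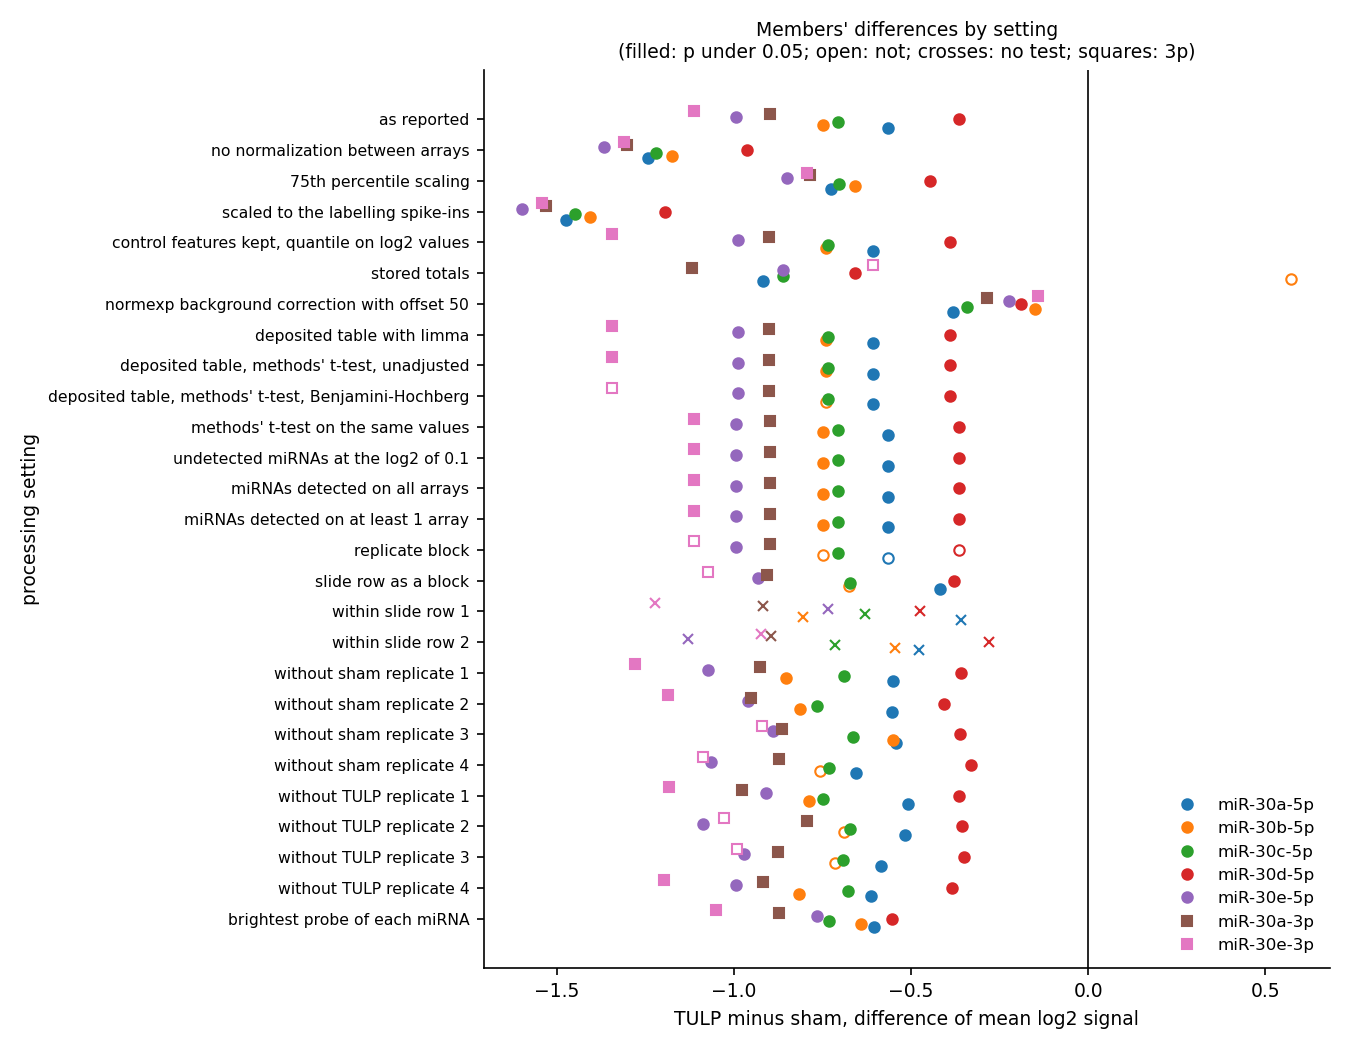
Difference of mean log2 signal, TULP minus sham, of the 7 members (colours, squares for 3p strands) under each processing setting. Filled symbols passed at 0.05 and open ones did not, by the unadjusted p in the setting named unadjusted. Crosses mark values within 1 slide row, which have no test. All points but 1 lie left of 0, and the exception is miR-30b-5p on the stored totals, at 0.57.

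Markers of the cell types that the tissue could hold moved between the groups too. Of the 7 miRNAs listed for striated muscle, 4 were tested and 3 passed the adjusted p as lower in the TULP group, namely miR-1-3p (-0.74), miR-133a-3p (-0.96) and miR-133b-3p (-0.72), while miR-206-3p was at 0.25 and did not pass. The summed normalized signal of this list was 4049 to 5665 on the sham arrays and 2645 to 4642 on the TULP arrays. Its other members, miR-208a-3p, miR-208b-3p and miR-499-5p, were not detected. Of the 6 leukocyte miRNAs, 5 were tested and 2 passed as higher, miR-223-3p (2.10) and miR-142-3p (2.01). miR-155-5p (0.89), miR-146a-5p (0.39) and miR-150-5p (-0.59) did not pass. The sum of this list was 60.7 to 82.8 on the sham and 100.4 to 169.7 on the TULP arrays. Of the 8 tested epithelial miRNAs, 0 passed the limma adjusted p and 3 had an unadjusted p under 0.05 (miR-375-3p, miR-200c-3p and miR-200a-3p). The sham arrays held these 3 at 3.52 to 4.05, 4.22 to 4.69 and 5.94 to 6.56. On TULP replicate 1 they were 4.05, 4.71 and 6.42. The other TULP arrays were lower, at 0.96 (the floor), 2.00 to 2.86 and 5.35 to 5.46. The median difference of the epithelial list was -0.70, beside -0.02 over all tested miRNAs, and 6 of the 8 were below 0. These 6 were miR-375-3p (-2.03), miR-200c-3p (-1.46), miR-183-5p (-0.74), miR-200a-3p (-0.71), miR-205 (-0.68) and miR-141-3p (-0.57), while miR-200b-3p was at 0.00059 and miR-429 at 0.01. The summed signal of the epithelial list was 501 to 689 in sham and 396 to 956 in TULP, and miR-182 was not detected. None of the 2 smooth muscle and 1 endothelial miRNAs tested passed, and their sums overlapped between the groups. Of the 2 erythroid miRNAs tested, miR-486 passed as lower (-0.79), and miR-451-5p (-0.66) did not pass. The part of cell composition in the falls of the miR-30 family was not tested. Of the 11 listed epithelial miRNAs, 10 were detected on at least 1 array, among them miR-203a-3p and miR-96-5p on 1 array each. The 2 smooth muscle miRNAs were detected on all 8 arrays.

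Beside other families with several paralogs, let-7 and miR-29, the members can be set by counts. Of the 8 tested let-7 members, 1 passed, let-7g-5p at -0.54 (SE 0.09, limma adjusted p = 0.00539), and the median difference was -0.01. Of the 4 tested miR-29 members, 1 passed, miR-29c-5p (limma adjusted p = 0.00539), which was detected on the 4 sham arrays alone, and the median difference was -0.21. The difference between families was not tested.

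Over the 8 arrays, the tested miRNAs outside the family whose profile was most like the mean of the 5p members were miR-1b (Pearson r = 0.979), miR-29c-5p (r = 0.965) and miR-99a-5p (r = 0.965). The profile of miR-30e-3p was most like those of miR-26b-5p (r = 0.933), miR-195-5p (r = 0.920) and miR-29c-5p (r = 0.908). All 5 of these miRNAs were lower in the TULP group. They were picked by likeness to profiles that fell, so this direction was largely set by the choice. The correlations include the difference between the groups, and miR-29c-5p lay at the floor (0.96) on every TULP array.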

How the data were processed

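RNA of 4 sham and 4 TULP animals was hybridized to 1-colour Agilent rat miRNA arrays, and groups followed the sample titles. Per the file headers, the authors read the images with Agilent Feature Extraction 10.7.1.1, whose spot intensity is background subtracted, linear and not normalized. The authors also deposited a table of quantile-normalized log2 values for 780 features. Its scale was log2, with no centring of miRNAs, a median of -3.32 and the order of detected signals within each array, so higher values mean more signal. The members, lists and comparisons were chosen with earlier results of these data known. They were all family members, the 3 miRNAs most correlated with each of the 2 profiles, and the marker and comparison lists.

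Signals were rebuilt as the sum of probes exceeding 3 times their error (0.1 where none did), which gave the detection calls of the files with 0 mismatches. They were quantile normalized over 758 rat miRNAs in R 4.3.3, raised to a floor of 1.94 and converted to log2. The 151 miRNAs detected on at least 4 of 8 arrays were tested with limma 3.58.1 with group as the single term, in place of the methods' t-test, and Benjamini-Hochberg adjustment. A 2-fold threshold followed the methods. Scripts were tested on simulated data. With 4 arrays against 4, the smallest two-sided exact permutation p is 0.0286. No spot was saturated, and the number of arrays limits the precision. Replicates are separate rats per the methods. Alternatives covered the normalization, signal, background correction, filter, floor, test, slide row, replicate block and each array left out.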

Additional observations from a re-analysis of the deposited data

Results flagged for a closer look

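In 4 of the 18 groups of 4 arrays checked (7 members and 2 strand differences in each group), 1 array was separated from the rest by a gap beyond Dixon's 95% critical value, which chance gives in about 1 in 20 groups. miR-30a-5p was low on sham replicate 4 (6.98). miR-30c-5p was low on TULP replicate 2 (6.91), and miR-30d-5p was high on TULP replicate 4 (6.09). In these 3 groups, the remaining arrays held equal or nearly equal ranks, and before normalization 0 of the 14 groups of member values had such an array. The 5p minus 3p value of miR-30a was low on TULP replicate 1 (1.65), the array without which the strand difference of miR-30a had an exact permutation p of 0.0286.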

How the results depend on the processing

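Over 194 alternative values of the 7 members' differences, 193 were below 0, and 163 of the 180 with a test passed. These include the methods' t-test on the deposited table without adjustment, where passing means an unadjusted p under 0.05. miR-30a-3p, miR-30c-5p and miR-30e-5p passed in each alternative with a test. The number of members passing was 7 as reported and 5 to 7 when 1 array was left out, where 19.0% to 38.3% of all tested miRNAs passed. Correlations of deviations between same-numbered sham and TULP arrays were -0.10 to 0.27. Sham replicates 1 and 3 were most like the TULP array of the same number, and replicates 2 and 4 were not. So few arrays cannot settle whether the replicate numbers pair them. With the replicate numbers as a block, 3 members passed, beside 24.5% of all tested miRNAs. miR-30a-5p (-0.56), miR-30b-5p (-0.75), miR-30d-5p (-0.37) and miR-30e-3p (-1.11) did not. On the stored totals, miR-30b-5p turned to 0.57 (limma adjusted p = 0.630), and miR-30e-3p (-0.61) no longer passed. The stored total of miR-30b-5p exceeded the sum of its detected probes on 6 of 8 arrays, by up to 9.79 times. On sham replicate 1 it was 155.458, beside 17.962 for its detected probes and 137.496 for those of miR-30a-5p. On TULP replicate 1 it was 86.2342, beside 11.1298 and 75.1044. On sham replicates 3 and 4 it equalled its detected probes, so the 0.57 compares unlike totals and does not measure miR-30b-5p alone. The methods' t-test on the deposited table with Benjamini-Hochberg adjustment lost miR-30b-5p (-0.74) and miR-30e-3p (-1.34), and the slide row as a block lost the same members (-0.68 and -1.07). Within slide row 1, miR-30a-5p (-0.36), miR-30c-5p (-0.63), miR-30d-5p (-0.48) and miR-30e-5p (-0.73) moved by more than the spread, as did miR-30d-5p within row 2 (-0.28). Leaving out 1 array gave -0.85 to -0.55 for miR-30b-5p and -1.28 to -0.92 for miR-30e-3p, and both lost the call without some arrays. Members passing were 7 with the brightest probe, an alternative chosen after seeing the data.

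The strand difference of miR-30a was 0.22 to 0.47 when 1 array was left out and -0.10 under normexp with an offset of 50. It was 0.057 (exact permutation p = 0.714) without normalization, with the 75th percentile and with the labelling spike-ins. The strand difference of miR-30e was -0.056 without normalization, with the 75th percentile and with the labelling spike-ins. It was -0.26 on the stored totals, -0.081 under normexp, and -0.059 to 0.27 when 1 array was left out. With the brightest probe of each miRNA, the strand difference was 0.27 for miR-30a (exact permutation p = 0.4) and 0.29 for miR-30e (exact permutation p = 0.343). On TULP replicate 1, the stored total of miR-30e-5p was 21.1, beside 14.0 for its detected probes and 7.16 for those of miR-30e-3p. The cause of these changes in the strand differences was not tested. Signals near the detection limit bound what can be said of the 4 members not tested and of the dimmer probes.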
